A study of Mus musculus with 8 samples.

Results

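The ID genes and a set of genes of bone morphogenetic protein (BMP) signalling were followed across germ-cell libraries of mice labelled wild-type or Rhox10-null. The 10 genes were taken by name and chosen from earlier results on these libraries: Id1, Id2, Id3 and Id4, the feedback genes Smad6, Smad7 and Bambi with the signal transducer Smad9, and the ligand genes Bmp2 and Bmp4. They are 10 of 55487 genes in the count table, and all 10 had enough reads to be among the 23190 genes tested. The mice were C57BL/6 fetuses whose germ cells were sorted from testis by flow cytometry. All of them carried Oct4-eGFP, a reporter in which sequences of Oct4 (Pou5f1) drive green fluorescent protein; the group labelled KO was also Rhox10-null, and the group labelled WT were its littermates. The fetal age is not given in the sources used here, and neither is whether each library came from 1 animal. There were 4 libraries per group, so p-values measure the spread between these libraries, which may be technical.

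BMPs are secreted ligands of the transforming growth factor beta family. They bind pairs of type I and type II serine/threonine kinase receptors, which phosphorylate SMAD1, SMAD5 and SMAD9; these join SMAD4 and bind DNA, and the ID genes are among their best-known targets. ID proteins have a helix-loop-helix but no DNA-binding part, so that they hold E proteins such as those of Tcf3, Tcf4 and Tcf12 away from DNA. SMAD6, SMAD7 and BAMBI are targets too and damp the pathway. In the embryo BMP signals from tissue around the epiblast start the formation of primordial germ cells, and in the testis Id4 is known as a marker of spermatogonial stem cells.

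The libraries held 16346977 to 20311338 counts. Rhox10 itself was read in every library, at a mean of 1.07 ± 0.117 CPM under the WT label and 0.879 ± 0.220 CPM under the KO label (CPM, reads of a gene per megaread of library after TMM composition scaling; SD, n = 4). Its log2 fold change was -0.28 (edgeR adjusted p = 0.767), so its counts do not check the genotype, and groups are named by their labels. Germ-cell markers were present, with a median over 13 genes of 4.46 CPM per kilobase of exon under the WT label and the helicase gene Ddx4 the highest at 14.7. Markers of some somatic cells were more abundant: the median was 76.5 CPM per kilobase over 8 fetal Leydig cell genes, 37.6 over 11 genes of interstitial mesenchyme and 19.7 over 11 Sertoli cell genes. It was lower than that of germ cells over 15 endothelial genes (2.32), 14 blood and macrophage genes (2.79) and 16 genes of tubular and duct epithelium (0.633). Yet 4 of the blood and macrophage genes, the highest at 98.7, and 1 endothelial gene stood above Ddx4. Under the WT label the sums were 222.8 to 242.3 CPM (germ cells), 243.6 to 255.4 (endothelium) and 236.9 to 253.5 (blood and macrophages). A level given here is therefore that of the sorted sample, and fewer cells of a type cannot be told apart from less RNA per cell.

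The promoters of Id2 and Id3, the ID genes whose fall held in every setting tried, are shown with those of Id4 and Smad6, which did not pass the test, so that the SMAD-type letters near each start can be compared. RefSeq (GRCm38.p6) gave a promoter for 6 of the 10 genes. Each run below has 250 bases before the RefSeq start site and 10 from it. For Id2 and Id3 the run lies inside the gene span of the count table, which is given further below. Capitals mark GTCT or its reverse complement AGAC, the short SMAD element, and GGCGCC, a GC-rich one.
Id2: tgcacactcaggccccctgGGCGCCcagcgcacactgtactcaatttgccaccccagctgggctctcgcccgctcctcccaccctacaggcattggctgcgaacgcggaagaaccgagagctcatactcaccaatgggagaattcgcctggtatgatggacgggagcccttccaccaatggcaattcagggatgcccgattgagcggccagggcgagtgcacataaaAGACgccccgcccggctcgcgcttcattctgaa
Id3: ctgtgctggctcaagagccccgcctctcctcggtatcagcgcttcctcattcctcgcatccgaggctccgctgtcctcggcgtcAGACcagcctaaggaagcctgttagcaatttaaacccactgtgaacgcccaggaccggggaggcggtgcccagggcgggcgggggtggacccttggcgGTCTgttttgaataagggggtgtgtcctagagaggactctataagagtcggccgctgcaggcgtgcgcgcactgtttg
Id4: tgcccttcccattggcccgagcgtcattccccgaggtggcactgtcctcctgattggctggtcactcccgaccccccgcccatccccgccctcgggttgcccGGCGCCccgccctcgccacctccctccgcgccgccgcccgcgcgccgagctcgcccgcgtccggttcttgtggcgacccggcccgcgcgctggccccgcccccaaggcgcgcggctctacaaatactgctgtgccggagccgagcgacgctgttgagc
Smad6: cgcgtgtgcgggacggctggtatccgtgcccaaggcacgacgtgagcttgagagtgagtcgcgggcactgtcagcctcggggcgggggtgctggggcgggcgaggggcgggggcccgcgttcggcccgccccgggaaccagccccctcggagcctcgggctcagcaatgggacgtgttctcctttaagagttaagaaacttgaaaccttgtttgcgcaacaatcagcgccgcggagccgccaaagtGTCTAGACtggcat
These lie at chr12:25096083-25096342 (minus strand) for Id2, chr4:136143572-136143831 (plus strand) for Id3, chr13:48260866-48261125 (plus strand) for Id4 and chr9:64022050-64022309 (minus strand) for Smad6, each written 5′ to 3′ along its gene. GGCGCC, which reads the same on both strands, was found once in Id2 and once in Id4, and in 9.96% of all 32851 RefSeq promoter windows of this length. Its GC-rich variant GGAGCC, left unmarked, was found on either strand in each promoter shown, and in 26.8% of all windows. The short GTCT element, on either strand, was found once in Id2, at 2 places in Id3 and at none in Id4, and in 84.0% of all windows, so its presence says little. In Smad6 it forms the palindrome GTCTAGAC across the start site (its first base 4 bases before the start; its left and right parts are the 2 GTCT matches of that promoter), which 0.177% of all windows held. The promoters of Smad9 and Bmp4, which also did not pass the test, are not shown. Smad9 held GGCGCC once and Bmp4 did not hold it, and each held GTCT and GGAGCC once on either strand. A match is a description of letters and was not tied to any value below.

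Id1, Id2 and Id3 fell under the KO label, by 18.4%, 20.4% and 22.6%. The other 7 genes, with Id4 and both ligand genes among them, did not pass the test. For Bmp2 the estimate was a fall of 19.4%, beyond that of Id1, but with a larger standard error (0.14 against 0.09 on the log2 scale). Of all 23190 genes tested 5.14% passed in either direction, and 2.80% were lower. Of the 10 genes followed here 3 were lower and none was higher, where 2.35% of all genes were. An unadjusted p under 0.05 was reached by 5 of the 10, beside 15.6% of all genes tested. DESeq2 and limma voom each called 2 of the 10, Id2 and Id3, where they called 2.99% and 3.63% of all genes. The 10 genes had a median log2 fold change of -0.14, beside 0.00 over all genes tested (544 rose and 649 fell). The balance of rising and falling genes depended on the scaling: 427 rose and 834 fell when only library totals were used, and 633 rose and 555 fell with upper-quartile scaling. Id1, Id2 and Id3 fell under each of these scalings. The genes were chosen with earlier results known, so their share against the background is a description. The plot of fold change against level sets the 10 genes among all genes tested.

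**Figure D1:**
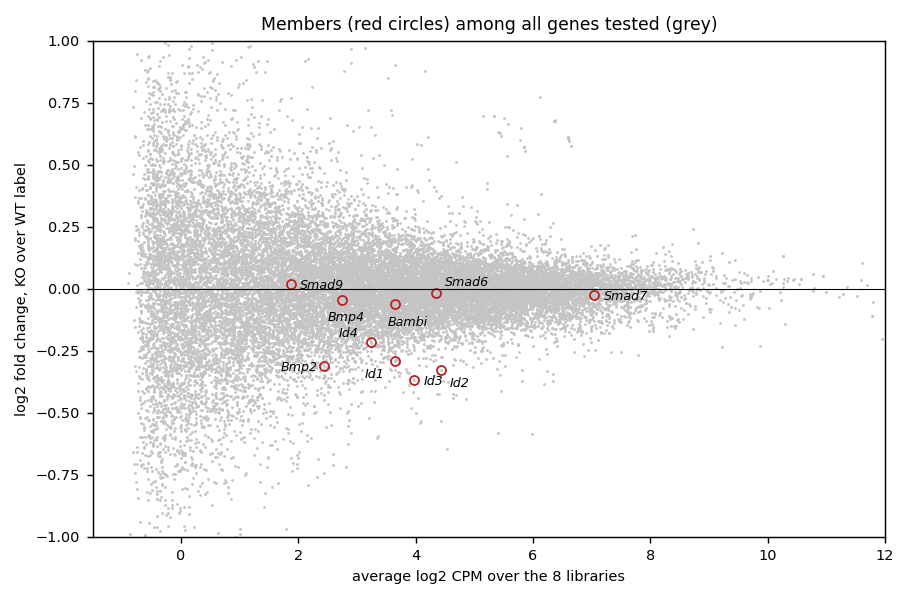
Log2 fold change of libraries labelled KO over those labelled WT (vertical axis) against the average log2 CPM over the 8 libraries (horizontal axis), for all genes tested (grey) and the 10 genes followed (red circles). Id1, Id2 and Id3 lie between -0.29 and -0.37, while Smad7, the most abundant, lies at -0.02; 175 genes fall outside the axes.

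Id2 encodes an inhibitor of differentiation found in many embryonic tissues and lies on chromosome 12 from 25093799 to 25097140 (GRCm38; ENSMUSG00000020644). Its level was 23.65, 22.69, 25.56 and 23.65 CPM in WT-labelled replicates 1 to 4 and 22.93, 19.31, 17.33 and 16.82 CPM in KO-labelled replicates 1 to 4. KO replicate 1 lay among the WT-labelled libraries, and the other KO-labelled libraries lay below all of them. The means were 23.9 ± 1.21 and 19.1 ± 2.77 CPM (SD, n = 4), a log2 fold change of -0.33 with a standard error of 0.07 and a 95% interval of -0.47 to -0.19 (edgeR adjusted p = 0.000426). The spread between KO-labelled libraries, 14.5% of their mean, was above the 5.42% that counting alone gives at 324 to 376 reads. DESeq2 (adjusted p = 0.0150) and limma voom (0.00848) called it too.

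Id3, a close relative that is also switched on quickly by growth factors in many cells, lies on chromosome 4 from 136143497 to 136145755 (ENSMUSG00000007872). It stood at 19.33, 14.58, 19.90 and 17.02 CPM in the WT-labelled libraries and at 13.17, 14.36, 15.13 and 12.06 CPM under the KO label, in replicates 1 to 4. WT replicate 2 fell within the KO-labelled range, so the groups overlapped by this 1 library. The means were 17.7 ± 2.43 and 13.7 ± 1.35 CPM (SD, n = 4; log2 fold change -0.37, standard error 0.08, 95% interval -0.53 to -0.20, edgeR adjusted p = 0.000907). Here the larger spread was on the WT side, 13.7% of the mean against 5.57% from counting. Id3 was called by DESeq2 (adjusted p = 0.0230) and limma voom (0.0302), and leaving out single libraries moved its fold change between -0.46 and -0.31.

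Id1, the ID gene used most often to read out BMP signalling, lies on chromosome 2 from 152736251 to 152737410 (ENSMUSG00000042745). Its levels were 12.61, 13.59, 14.12 and 14.36 CPM under the WT label and 9.88, 11.62, 11.42 and 11.65 CPM under the KO label. It was the 1 gene of the 10 whose groups did not overlap; over all genes tested 9.44% did not overlap, 4.72% with the KO-labelled libraries lower. The means were 13.7 ± 0.779 and 11.1 ± 0.849 CPM (SD, n = 4; log2 fold change -0.29, standard error 0.09, edgeR adjusted p = 0.0336). The spread within each group, 5.70% and 7.62% of the mean, was near the counting error of 6.32% and 7.06%. The call lay close to the threshold: it was lost without KO replicate 1 (adjusted p = 0.159), WT replicate 4 (0.106), WT replicate 3 (0.0952), WT replicate 2 (0.0630) or KO replicate 3 (0.0592), and with DESeq2 (0.118) and limma voom (0.0611), while the fold change stayed between -0.33 and -0.24.

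Id4, which marks spermatogonial stem cells after birth, lies on chromosome 13 from 48261228 to 48266026 (ENSMUSG00000021379). It stood at 9.97, 10.48, 10.24 and 9.46 CPM in the WT-labelled libraries and at 9.39, 7.27, 8.27 and 9.61 CPM under the KO label, so the groups overlapped through KO replicate 4. Its log2 fold change was -0.22 with a 95% interval of -0.42 to -0.01, and it did not pass (edgeR adjusted p = 0.288; unadjusted 0.0401). Its interval holds the estimates of Id1, Id2 and Id3, so that the data do not separate it from them. Exons of Id4 share 82 and 171 bases with 2 genes on the opposite strand, A330033J07Rik and Gm49291; these held 12 and 20 counts over the 8 libraries, beside 1359 for Id4. Whether strand was used in counting is not given in the sources used here.

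The ID genes together made up 61.3 to 69.8 CPM in the WT-labelled libraries and 50.1 to 55.4 CPM in the KO-labelled ones. Within that sum, taken per kilobase of exon, the make-up was alike: Id1 averaged 34.6% under the WT label and 35.2% under the KO label, Id2 28.8% and 28.6%, Id3 28.9% and 27.9%, and Id4 7.67% and 8.23%. For each of them the range of shares under the KO label overlapped that under the WT label. Id2 varied most among the KO-labelled libraries, from 25.8 to 33.9% of the family.

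**Figure D2:**
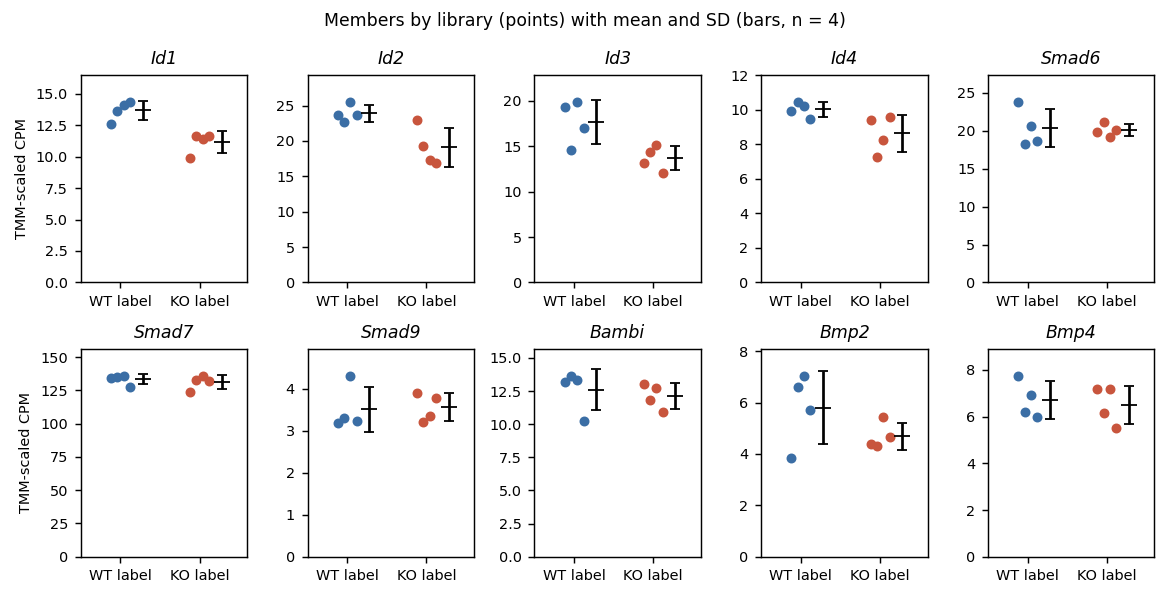
Level of each of the 10 genes in TMM-scaled CPM (vertical axes, from 0) in the 4 libraries labelled WT (blue) and the 4 labelled KO (red); black bars give the mean and SD. Id1 does not overlap between the groups, Id2 and Id3 overlap by 1 library each, and Smad6, Smad7, Smad9, Bambi and Bmp4 lie at like levels in both.

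The feedback genes were at like levels under both labels. None of Smad6, Smad7, Smad9 and Bambi passed (0 of 4 with edgeR, DESeq2 or limma voom, and 0 at an unadjusted p under 0.05; over all genes tested 15.6% had such a p, and 2.99% and 3.63% passed with DESeq2 and limma voom). Smad7, whose protein blocks receptors of both the BMP and the TGF-beta arm, lies on chromosome 18 from 75367529 to 75395935 (ENSMUSG00000025880). It stood at 134.3, 135.2, 135.8 and 127.6 CPM in the WT-labelled libraries and at 123.6, 132.9, 135.6 and 131.9 CPM under the KO label. With 2027 to 2736 reads per library, its log2 fold change of -0.02 had the narrowest interval of the 10, -0.08 to 0.04 (edgeR adjusted p = 0.801). That interval lies above the intervals of Id1, Id2 and Id3.

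Smad6, whose protein acts mainly on BMP-type SMADs, lies on chromosome 9 from 63953076 to 64022059 (ENSMUSG00000036867). Its levels were 23.83, 18.29, 20.63 and 18.69 CPM under the WT label and 19.88, 21.16, 19.17 and 20.09 CPM under the KO label. WT replicate 1 was the highest and WT replicate 2 the lowest of the 8, so the KO-labelled libraries lay inside the WT range (log2 fold change -0.02, 95% interval -0.16 to 0.13, edgeR adjusted p = 0.947). Bambi encodes a pseudoreceptor without a kinase and lies on chromosome 18 from 3507923 to 3516404 (ENSMUSG00000024232). It stood at 13.21, 13.64, 13.33 and 10.27 CPM against 13.05, 11.80, 12.73 and 10.89 CPM (log2 fold change -0.06, 95% interval -0.24 to 0.12, edgeR adjusted p = 0.828). WT replicate 4 was the lowest of the 8, and the other WT-labelled libraries lay above all KO-labelled ones.

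Smad9 encodes the least abundant of the BMP-type transducers here and lies on chromosome 3 from 54755582 to 54801257 (ENSMUSG00000027796). It was read 53 to 82 times per library, at 3.18, 3.31, 4.30 and 3.23 CPM under the WT label and 3.90, 3.22, 3.35 and 3.78 CPM under the KO label. The libraries of both labels were mixed in order. At this depth the log2 fold change of 0.02 had an interval of -0.31 to 0.35 (edgeR adjusted p = 0.978), which includes a fall as large as that of Id1; a difference of that size was not detectable at this depth.

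**Figure D3:**
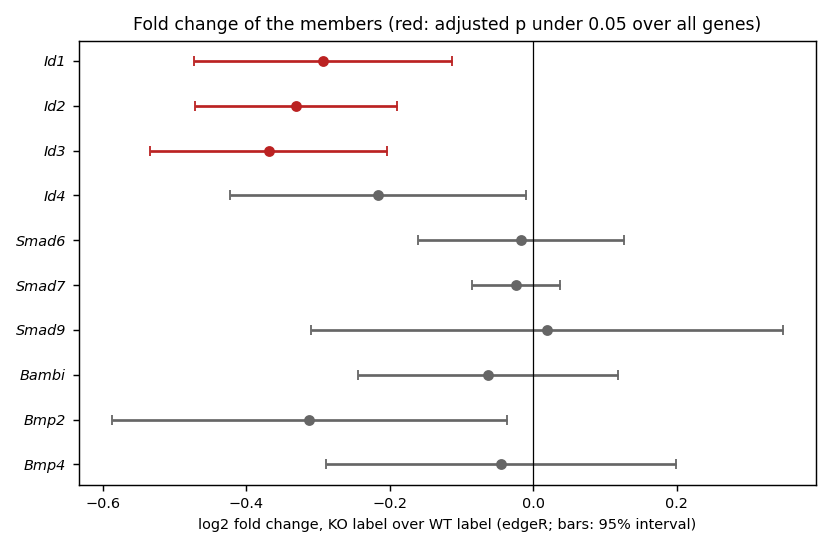
Log2 fold change of libraries labelled KO over those labelled WT for each of the 10 genes (points) with its 95% interval (bars), from edgeR; red marks an adjusted p under 0.05 over all genes tested. The intervals of Id1, Id2 and Id3 end at -0.11, -0.19 and -0.20, while that of Smad7 spans -0.08 to 0.04.

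Neither ligand gene passed with edgeR, DESeq2 or limma voom. Bmp2, a ligand gene of bone, heart and ovary, lies on chromosome 2 from 133552159 to 133562885 (ENSMUSG00000027358). It stood at 3.84, 6.62, 7.03 and 5.71 CPM in the WT-labelled libraries and at 4.39, 4.29, 5.45 and 4.65 CPM under the KO label. WT replicate 1 was the lowest of the 8 libraries, and the other WT-labelled libraries lay above all KO-labelled ones. The log2 fold change was -0.31 with a 95% interval of -0.59 to -0.04 (edgeR adjusted p = 0.229; unadjusted 0.0265). Without WT replicate 1 it was -0.46 and was called (adjusted p = 0.0399), but Bmp2 was called in no other fit with a library left out. Without WT replicate 3 it was -0.21 (edgeR adjusted p = 0.590). DESeq2 gave an adjusted p of 0.588 and limma voom 0.444.

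Bmp4, the ligand gene whose loss prevents primordial germ cells from forming, lies on chromosome 14 from 46383520 to 46390669 (ENSMUSG00000021835). Its levels were 7.74, 6.18, 6.93 and 6.00 CPM under the WT label and 7.20, 6.14, 7.17 and 5.52 CPM under the KO label. The ranges nearly coincided (log2 fold change -0.04, 95% interval -0.29 to 0.20, edgeR adjusted p = 0.921). Of 2 genes on the opposite strand, Gm15217 shares 89 exon bases with it and held 24 counts over the 8 libraries beside 956 for Bmp4, and Gm15222 shares none.

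Per kilobase of exon, the scale on which genes can be ranked, Smad7 stood highest at 29.5 ± 0.842 CPM per kilobase under the WT label (SD, n = 4), apart from all others. Id1 (11.8 ± 0.672), Id3 (9.89 ± 1.36) and Id2 (9.80 ± 0.495) followed, and in this run of ID genes each range overlapped that of its neighbour. Smad6 came next at 6.35 ± 0.789, apart from both neighbours. Bmp4 (2.99 ± 0.354), Id4 (2.61 ± 0.114) and Bambi (2.49 ± 0.310) overlapped in turn, Bmp2 (1.63 ± 0.399) lay below them, and Smad9 (0.653 ± 0.0996) was the lowest. Under the KO label the order was the same but for exchanges of Id2 with Id3 and of Bambi with Id4, whose ranges overlapped. There Id1, at 9.61 ± 0.732 CPM per kilobase, overlapped Id2 (7.83 ± 1.14) but lay above Id3 (7.64 ± 0.753) in all 4 libraries.

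The rest of the pathway was read from lists by role. Outside the 10 genes 66 of 73 listed BMP and TGF-beta pathway genes were tested, of which 1 fell, 2 rose and 63 did not pass. Over all genes tested 2.80% fell and 2.35% rose, 5.14% in either direction, so the pathway genes were called about as often as any gene. The median log2 fold change of the 66 was 0.00, the same as that of all genes tested. Of these 66 genes 11 had an unadjusted p under 0.05, beside 15.6% of all genes. DESeq2 and limma voom each called 2 of the 66, where they called 2.99% and 3.63% of all genes.

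Among ligands none of 10 tested passed with edgeR, DESeq2 or limma voom, and 2 had an unadjusted p under 0.05. Bmp7, a ligand gene of kidney and gonadal epithelia, stood at 5.83 to 10.20 CPM under the WT label and 8.78 to 11.73 under the KO label (log2 fold change 0.34 with an edgeR adjusted p of 0.0679). The groups overlapped through WT replicate 1, and without it Bmp7 was called (0.49, adjusted p = 0.00362), as it was without KO replicate 1 (0.38, 0.0320). Bmp7 did not pass in any other fit with a library left out. It was weaker without KO replicate 3 (0.23, edgeR adjusted p = 0.405), WT replicate 4 (0.23, 0.350) or WT replicate 2 (0.26, 0.301). The adjusted p was 0.364 with DESeq2 and 0.165 with limma voom. Bmp6, the most abundant ligand gene of the list by CPM, stood at 20.9 ± 0.278 and 21.1 ± 0.499 CPM (named after its value was seen). Bmp10, Bmp15, Gdf2 and Gdf5 had too few reads to be tested.

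Receptors and SMAD transducers held no called gene with edgeR, DESeq2 or limma voom. Of 11 receptors and co-receptors 3 had an unadjusted p under 0.05. Bmpr2, the type II receptor of BMPs, stood at 227.6 to 239.9 CPM under the WT label and 216.7 to 224.1 under the KO label. These groups did not overlap, yet the log2 fold change was only -0.07 and did not pass (edgeR adjusted p = 0.0761; 0.0195 with library totals alone). Bmpr1b, a type I receptor gene, stood at 2.92 to 4.90 CPM under the WT label and 4.11 to 5.76 under the KO label (log2 fold change 0.39 with an edgeR adjusted p of 0.134). It was called without WT replicate 4 (0.53, 0.0427) but in no other fit with a library left out. Without WT replicate 2 it was 0.27 (edgeR adjusted p = 0.439). DESeq2 gave an adjusted p of 0.425 and limma voom 0.203. Of the 4 transducers Smad5 had 81.1 ± 3.35 and 86.1 ± 2.27 CPM (log2 fold change 0.09 with an edgeR adjusted p of 0.190), the 1 with an unadjusted p under 0.05, and Smad1 24.8 ± 1.14 and 24.1 ± 2.17 CPM (-0.04, adjusted p = 0.848).

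Extracellular antagonists, which bind BMPs before they reach a receptor, held no called gene of 15 tested with edgeR, DESeq2 or limma voom, and none with an unadjusted p under 0.05. Their median log2 fold change was -0.01. Sostdc1 had the smallest p, at 19.5 ± 1.67 and 17.7 ± 1.43 CPM (SD, n = 4; -0.14, edgeR adjusted p = 0.351), followed by Cer1, at 1.09 ± 0.431 and 0.819 ± 0.0703 CPM (adjusted p = 0.629). Nog, which encodes noggin, and Sost were too low to be tested.

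Among 14 intracellular inhibitors Tob1 fell and 13 did not pass. Tob1 encodes an antiproliferative protein that binds BMP-type SMADs. It stood at 43.34, 47.85, 48.87 and 45.63 CPM in the WT-labelled libraries and at 38.54, 37.91, 36.24 and 35.88 CPM under the KO label, with no overlap. Its log2 fold change of -0.33 (standard error 0.05, edgeR adjusted p = 1.74e-07) was close to that of Id2, and single libraries moved it only between -0.36 and -0.30.

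Beside the ID and feedback genes, the list of BMP targets held Atoh8, Hey1 and Msx1 among its 11 tested genes, and of all 11 the 3 that fell were Id1, Id2 and Id3. Atoh8, a helix-loop-helix gene that responds to BMP in endothelium and liver, stood at 6.12 ± 0.268 and 6.21 ± 0.395 CPM (SD, n = 4; log2 fold change 0.03 with an edgeR adjusted p of 0.957). Hey1, a target of both Notch and BMP, stood at 7.27 ± 0.735 and 7.54 ± 0.546 CPM (0.05, adjusted p = 0.906). Atoh8, Hey1 and Msx1, whose log2 fold change was 0.57 (95% interval -0.26 to 1.41, adjusted p = 0.574), are named after their values were seen.

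Of the E-protein genes, whose products ID proteins bind, Tcf4 rose and Tcf12 and Tcf3 did not pass. Tcf4 stood at 193.8 to 203.5 CPM under the WT label and 203.8 to 212.3 under the KO label, a log2 fold change of 0.09 (standard error 0.03, edgeR adjusted p = 0.0315). The call did not survive 6 of the 8 fits with a library left out, those without replicates 1, 3 and 4 of the WT label and 1, 2 and 3 of the KO label (adjusted p = 0.0705 to 0.118), with library totals alone (0.133), with no filter (0.112) and with DESeq2 (0.0687) or limma voom (0.0544). Tcf12 was at 0.08 (adjusted p = 0.0771) and Tcf3 at 0.01 (0.942).

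In the TGF-beta arm, which SMAD7 also damps, 1 of 12 genes rose and 11 did not pass. Ltbp1, which encodes a matrix protein that stores latent TGF-beta, stood at 68.47 to 81.21 CPM under the WT label and 86.40 to 89.77 under the KO label (log2 fold change 0.26, standard error 0.04, edgeR adjusted p = 1.12e-08). The transducers Smad2 and Smad3 were at 0.00 and -0.01 (adjusted p = 0.990 and 0.968). Pmepa1, a direct TGF-beta target, was at 0.00 (0.997); these 3 are named after their values were seen.

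**Figure D4:**
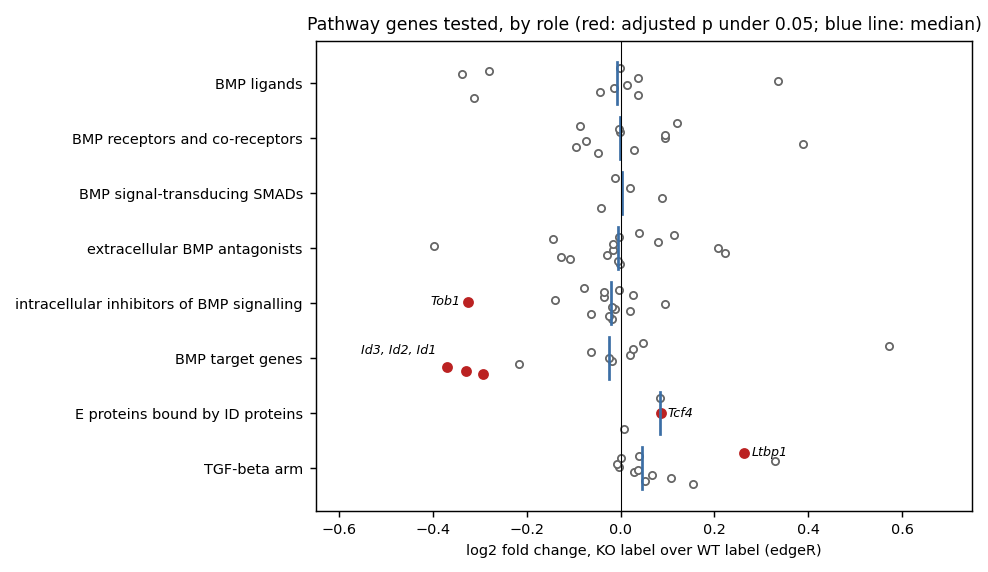
Log2 fold change of libraries labelled KO over those labelled WT (horizontal axis) for each tested gene of 8 lists by role (circles); filled red circles passed at an adjusted p under 0.05 and blue lines are list medians. Lists share members (Smad9 and the feedback genes stand in 2), and the medians lie between -0.02 and 0.08.

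Markers of other cells and the mitochondrial share of counts moved with the label as well, and their part in the ID values was not tested. The mitochondrial share was 15.31 to 15.70% under the WT label and 15.72 to 16.79% under the KO label, without overlap, and it was highest in KO replicate 1, the library with the lowest Id1 level and the highest Id2 level of the KO label. For 15 endothelial markers the summed level was 243.6 to 255.4 CPM under the WT label and 269.8 to 279.4 CPM under the KO label. Of these markers 3 rose and 12 did not pass, where 2.35% of all genes tested rose and 2.80% fell. Of 11 Sertoli cell markers 4 fell and 7 did not pass (912.6 to 933.0 and 857.5 to 873.3 CPM), and of 8 fetal Leydig cell markers 5 fell and 3 did not pass (3137 to 3166 and 2854 to 2897 CPM). Of 14 blood and macrophage markers 10 were tested and 5 fell (236.9 to 253.5 and 101.3 to 109.3 CPM), and of 16 markers of tubular and duct epithelium 15 were tested and 14 rose (74.9 to 81.8 and 135.1 to 151.9 CPM). Interstitial mesenchyme lay at 8422 to 8512 and 8171 to 8410 CPM (1 of 11 fell). The germ-cell markers themselves were at 222.8 to 242.3 and 212.3 to 225.2 CPM, with 2 up, 3 down and 7 not passing among 12 tested; no listed marker was at 0 in all libraries.

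**Figure D5:**
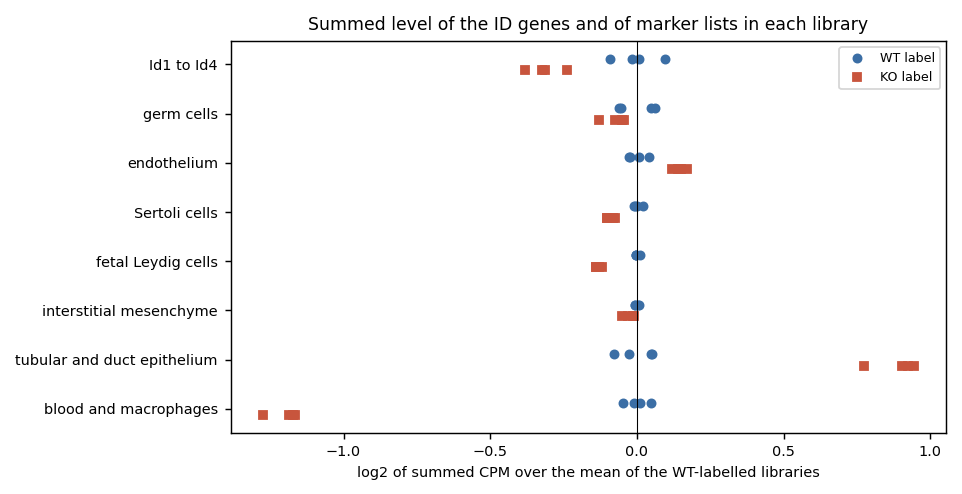
Log2 of the summed CPM of Id1 to Id4 and of 7 marker lists in each library over the mean of the WT-labelled libraries (horizontal axis), with WT-labelled libraries as blue circles and KO-labelled ones as red squares. Under the KO label the ID genes and the Sertoli, fetal Leydig, mesenchyme and blood markers lie to the left. Endothelial and epithelial markers lie to the right, and germ-cell markers overlap between the labels. The widest shifts are those of epithelial and blood markers.

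The protein-coding genes most like each ID gene across the 8 libraries were found by Pearson's r of log2 CPM among 9858 genes with a mean log2 CPM of at least 3. The 8 points share the difference between labels, and the highest of so many values is high by selection, so no p is given. For Id1 they were Srp54b (r = 0.97) and Srp54a (0.97), near-identical copies of a signal recognition particle gene whose reads may be shared, and Mvd (0.97), a gene of cholesterol synthesis. For Id2 they were Fbxo42 (0.97), Topors (0.97) and Ttc39c (0.96). For Id3 they were Dmrt1 (0.98), a transcription factor gene of male germ cells and Sertoli cells, Cpeb2 (0.965) and Haspin (0.96), and for Id4 Pebp1 (0.98), Dnajb4 (0.96) and Ppp1r15a (0.96). No gene appeared for more than 1 ID gene. All 12 had a log2 fold change below 0, of -0.22 to -0.09, smaller than those of Id1, Id2 and Id3.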

How the data were processed

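Total RNA of sorted germ cells was made into libraries with a stranded pico-input kit, per the labels' protocols. The authors deposited raw read counts per gene, 1 column per library. The submitters' processing notes name build GRCm38 and, without roles or settings, DESeq2, featureCounts, Subread and STAR 2.5.2b. Summed exon length, per the file headers, gave levels per kilobase. A gene name table gave symbols for 55141 of 55487 IDs, and 99.35% of genes shared with GENCODE M21 had the same position.

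Counts were tested with edgeR 4.0.16 in R 4.3.3: filterByExpr, TMM scaling and a robust two-sided quasi-likelihood test of KO against WT, adjusted by Benjamini-Hochberg over all 23190 genes, called under 0.05. The fit was tested on simulated data. DESeq2 1.42.0 and limma 3.58.1 (voom), other scalings and filters, a replicate block and each library left out were alternatives.

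The genes and lists were chosen with earlier results of these data known. Named by rule were the 10 genes, up to 4 called genes per pathway list (or 2 as values), and the 3 genes most like each ID gene. Some others are marked where they stand, while Tcf3, Tcf12 and Skil were named outside this rule without a mark. Counting error covers reads, not molecules.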

Additional observations from a re-analysis of the deposited data

Results flagged for a closer look

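In 3 of the 20 groups of 4 libraries (10 genes, 2 labels) 1 library stood apart from the others by more than Dixon's 95% limit, which chance alone reaches in about 1 group in 20. Id1 was at 9.88 CPM in KO replicate 1, with the other KO-labelled libraries at 11.42 to 11.65 CPM. Smad9 was at 4.30 CPM in WT replicate 3, above the others at 3.18 to 3.31 CPM. Bambi was at 10.27 CPM in WT replicate 4, below the others at 13.21 to 13.64 CPM.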

How the results depend on the processing

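Id2 and Id3 kept their direction and call in all 16 alternative fits (log2 fold change -0.43 to -0.27 and -0.46 to -0.31). Id1 kept its direction in all 16 and lost its call in 8 of them: with no filter (-0.29, adjusted p = 0.0565), DESeq2 (-0.29, 0.118), limma voom (-0.29, 0.0611) and 5 fits that left out a library (-0.33 to -0.24 over all 8 such fits). The number called among the 10 genes was 2 to 4. Bmp2 ranged from -0.46 to -0.21 with a library left out, Id4 from -0.28 to -0.15 and Bambi from -0.15 to -0.01. Sign changed with the library left out for Smad6 (-0.0688 to 0.0623), Smad7 (-0.0451 to 0.00231), Smad9 (-0.0235 to 0.134), Bmp4 (-0.0981 to 0.0298) and Smad1 (-0.0938 to 0.00200), none of which passed in any fit; the cause was not tested. Over all genes DESeq2 called 729 and a threshold of 0.01 left 678 of 1193; leaving out libraries gave 898 to 1040, with fewer samples. Of the pathway genes outside the 10, 5 were called with upper-quartile scaling (Skil and Tcf12 added), 5 with the replicate block (Bmp7 and Skil added) and 7 at a threshold of 0.10, and 2 to 3 with a library left out. Libraries of the same number did not deviate together (r = 0.00478, 0.0472, 0.0150 and -0.00349 for numbers 1 to 4, over 11522 genes). No pairing by number was thus seen, but such values cannot exclude that libraries of the same number share a litter or batch. Under the replicate block Id1, Id2 and Id3 were called (-0.29, -0.33 and -0.37). Depth limits Smad9, Bmp2 and Bmp4, read at most 137 times per library.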

Other observations

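Immediate-early genes, which many cells switch on within minutes of a stimulus or of handling, moved in both directions. Of 22 tested 5 fell, 3 rose and 14 did not pass, beside 5.14% called among all genes. Gadd45b, a stress-response gene, fell by 0.65 on the log2 scale (edgeR adjusted p = 7.77e-16), Ier5 by 0.41 (1.10e-11) and Ier2 by 0.23 (0.000391), and none of them overlapped between the labels. Fosb, an AP-1 gene, rose by 0.14 (adjusted p = 1.04e-06). Ier5 stood at 48.08 to 53.09 CPM under the WT label and 33.72 to 41.86 CPM under the KO label, and Fosb at 283.6 to 297.1 and 314.7 to 322.7 CPM. Their summed level was 1911 to 1983 CPM under the WT label and 1923 to 1958 CPM under the KO label, with the second range inside the first.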
